A study of Homo sapiens with 16 samples.

Results

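The run of peaks around TLE4 on the long arm of chromosome 9 was described across 9 lists of peaks from immunoprecipitations of G-quadruplex DNA in HEK293T cells, a human embryonic kidney line. Its members were all listed peaks that overlap chromosome 9 from 79.1 to 80.0 Mb in hg38, which were 603 of the 40118 peaks of the 9 lists. The members were chosen by where peaks were listed, and the limits enclose a dense stretch of them, so peak counts and covered shares of the run, set against other places, are descriptions with no test. The 1 Mb on either side served as comparison and held 5 peaks before and 29 peaks after the run over all lists. Of the 5, all from G4 DNA-IPdenat, 1 reaches into the run and is also counted there, and 4 do not.

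The study captured quadruplexes with the 1H6 antibody. In AbC G4-ChIP the antibody binds in permeabilised fixed cells and is then crosslinked, and this was done in HEK293T cells that stably carried a non-targeting shRNA (CT) or an shRNA against CGGBP1 (KD), a protein that binds CGG repeats. The labels name no control DNA for the nuc pair. In the ut pair 500 ng each of a control and a carrier plasmid, already bound by antibody, went into the lysate, and in the tr pair 1.25 ug of each was transfected per dish 12 hours before capture. G4-ChIP was the conventional assay on fixed chromatin of HEK293T cells. G4 DNA-IPnat and G4 DNA-IPdenat used sonicated genomic DNA of untransduced cells, captured directly or after it had been heat-denatured and chilled. CTnuc and KDnuc were sequenced on an Ion Torrent S5 against one pooled input, the other lists come from a MinION, and both DNA-IP lists share an input. Each list stands for 1 library pooled by the authors, so no spread between replicates could be measured. The peak lists give no read depth, and its part in the differences between lists was not tested.

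A G-quadruplex is a DNA fold in which runs of guanines stack as planes around potassium ions, and it is best known from GC-rich promoters and telomeres. TLE4 is a corepressor of the Groucho family. It does not bind DNA itself and is brought to genes by partners such as TCF/LEF, HES and RUNX factors, and so takes part in Wnt and Notch signalling. In hg38 the gene spans chr9:79571773-79726882 on the plus strand, which is 155110 bp or 17.2% of the run.

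Stretches of hg38 on which the results turn are shown here, all from the plus strand. The first is the only stretch of the run that peaks of all 7 chromatin lists (AbC G4-ChIP and G4-ChIP) share, chr9:79876576-79876861 in an intron of the lncRNA ENSG00000232494. GGG and CCC are in capitals.

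Shared stretch: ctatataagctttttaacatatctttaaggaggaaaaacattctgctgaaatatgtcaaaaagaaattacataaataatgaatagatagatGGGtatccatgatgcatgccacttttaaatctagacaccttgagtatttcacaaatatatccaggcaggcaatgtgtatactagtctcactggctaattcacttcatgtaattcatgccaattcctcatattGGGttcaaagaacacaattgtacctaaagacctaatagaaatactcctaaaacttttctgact

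Its GC content is 32.2% and it holds 2 such triplets. The next stretches lie in introns of TLE4, chr9:79572836-79573135 and chr9:79573371-79573502, in a gap at the start of the gene that no chromatin list covered. Capitals mark canonical signatures, meaning at least 4 runs of 3 or more guanines, or of cytosines for the other strand, separated by 1 to 7 bases.

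TLE4 start, first stretch: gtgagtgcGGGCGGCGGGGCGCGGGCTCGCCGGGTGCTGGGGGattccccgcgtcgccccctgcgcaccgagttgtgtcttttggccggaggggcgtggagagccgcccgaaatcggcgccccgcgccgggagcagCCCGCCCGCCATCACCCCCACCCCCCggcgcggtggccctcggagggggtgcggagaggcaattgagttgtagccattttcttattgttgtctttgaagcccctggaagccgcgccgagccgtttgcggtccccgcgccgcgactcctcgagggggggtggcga

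TLE4 start, second stretch: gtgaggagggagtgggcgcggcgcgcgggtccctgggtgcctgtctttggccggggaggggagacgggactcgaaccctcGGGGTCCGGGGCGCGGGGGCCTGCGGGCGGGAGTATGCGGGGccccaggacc

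They have a GC content of 72.7% and 78.0% and hold 2 and 1 signatures.

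The run held many peaks in the 6 AbC G4-ChIP lists, fewer in G4-ChIP and G4 DNA-IPdenat, and 0 in G4 DNA-IPnat. It held 98 peaks in CTnuc, 181 in KDnuc, 74 in CTut, 59 in KDut, 66 in CTtr, 94 in KDtr and 20 in G4-ChIP. G4 DNA-IPdenat had 11 peaks there and G4 DNA-IPnat 0, of 15709 and 226 peaks listed. In the chromatin lists the run made up between 1.37% (G4-ChIP) and 3.93% (KDtr) of all peaks, and between 31.5% (CTut) and 57.7% (KDtr) of those on chromosome 9. In G4 DNA-IPdenat it made up 1.78% of the peaks on that chromosome.

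Peaks covered 12.3% of the bases of the run in CTnuc, 34.3% in KDnuc, 47.6% in CTut, 66.9% in KDut, 64.9% in CTtr and 41.5% in KDtr. The share was 5.74% for G4-ChIP and 3.98% for G4 DNA-IPdenat. In the chromatin lists between 0.159% (G4-ChIP) and 0.904% (CTtr) of the bases of both flanks were covered, against 0.642% in G4 DNA-IPdenat. All 7 chromatin lists had 0 peaks in the 1 Mb before the run, and between 1 (G4-ChIP) and 7 (KDnuc) peaks in the 1 Mb after it. Covered share and peak count ranked the lists differently. Peaks of the run had a median length of 961 bp in CTnuc and 1404 bp in KDnuc, but 4395.5 bp in CTut, 7874 bp in KDut, 7136.5 bp in CTtr and 3180 bp in KDtr. Outside the run these 4 MinION lists had median lengths between 1598 bp (KDtr) and 1932 bp (CTut). The longest peak of the run reached 50123 bp, in KDut. Sequencing platform and the nuc handling cannot be told apart in these lengths.

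**Figure D1:**
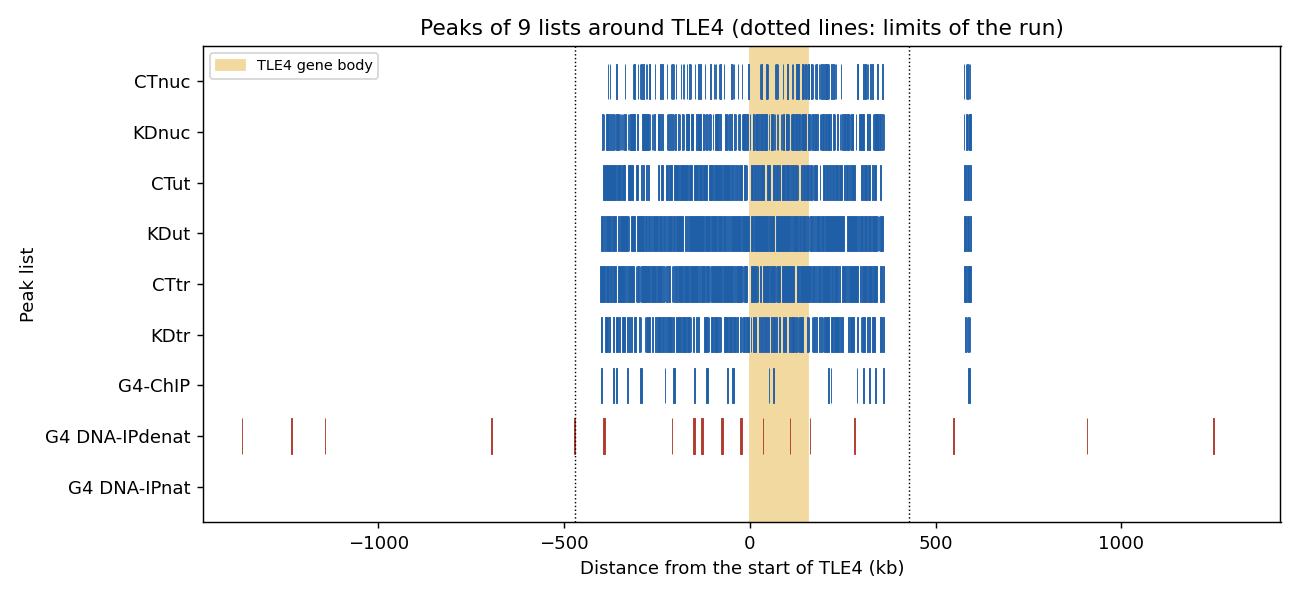
Peaks of each list (rows) against the distance from the TLE4 start in kb, with chromatin lists in blue, purified DNA in red, the gene body shaded and the limits of the run dotted. Bars have a thin outline, so the shortest gaps are not resolved. Peaks of the 7 chromatin lists lie along the same span and cover between 6.76% (G4-ChIP) and 78.8% (KDut) of it. These lists have 0 peaks in the 1 Mb before the run and share 1 small cluster after it.

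**Figure D2:**
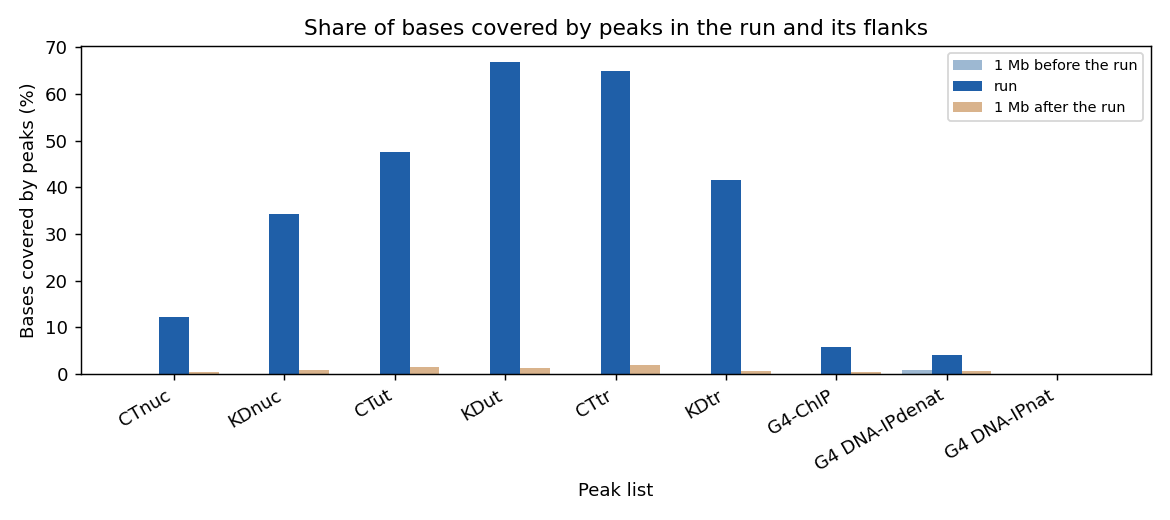
Share of bases covered by peaks in percent, as bars from 0, in the run and in the 1 Mb before and after it for each of the 9 lists. The run reaches 66.9% in KDut, while the highest flank of a chromatin list is 1.81% in CTtr.

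Peaks were spaced along the whole run in the AbC G4-ChIP lists. The median distance between neighbouring peaks was 3893 bp in CTnuc, 1917.5 bp in KDnuc, 2978 bp in CTut, 2202 bp in KDut, 2092 bp in CTtr and 3038 bp in KDtr, compared to 26764 bp for G4-ChIP and 57083 bp for G4 DNA-IPdenat. The longest gap between neighbouring peaks of CTtr in the run, 10512 bp, contained the start of TLE4. In the other chromatin lists the longest gap did not contain it. It was 43901 bp in CTnuc, 11853 bp in KDnuc, 25889 bp in CTut, 7895 bp in KDut, 12564 bp in KDtr and 146072 bp in G4-ChIP. Within the run, peak names of CTnuc left out 92 of 190 consecutive numbers and those of KDnuc 81 of 262, whereas the names in the other lists left out 0. Over the whole lists, CTnuc held 3796 peaks with numbers up to 10757, and KDnuc held 7753 with numbers up to 22266. The share of absent numbers was thus larger over the whole nuc lists than in the run. Peaks of the absent numbers were not analysed here, so counts, gaps and covered shares of the nuc lists hold for the listed peaks.

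The edges of the run lay close together in the chromatin lists. The first peak started at 79168724 in CTtr, 79169753 in KDut, 79170345 in G4-ChIP, 79171948 in KDtr, 79172779 in KDnuc, 79177239 in CTut and 79188804 in CTnuc. These starts spread over 20080 bp, or 8515 bp without CTnuc, and the first peaks all lay in introns of the lncRNA ENSG00000260995. The last peak ended between 79924357 (CTut) and 79933507 (G4-ChIP), a spread of 9150 bp, in intergenic DNA. From the lowest start to the highest end the chromatin lists spanned 764784 bp, called the span here, with 403049 bp before TLE4 and 206625 bp after it. TLE4 thus lay inside the run and away from both edges. The first G4 DNA-IPdenat peak, from 79098648 to 79101383, crossed the lower limit of the run and ended 67340 bp before the first chromatin peak.

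Beyond the run, peaks of the chromatin lists came back in 1 small cluster. It lay at chr9:80147538-80168137, after 214030 bp without a chromatin peak, and it held 26 peaks of all 7 lists with a fold between 3.31 and 5.31. No annotated gene overlaps its 20600 bp. The next peaks of the chromatin lists were at least 8843384 bp before the span, in KDnuc, and at least 5828728 bp after the cluster, in G4-ChIP, and CTnuc had none after it. When the genome was divided into 3337 tiles of 900 kb, the number of tiles with more peaks than the run was 3 in CTnuc, 1 in KDnuc, 7 in CTut, 6 in KDut, 6 in CTtr, 5 in KDtr, 8 in G4-ChIP and, for G4 DNA-IPdenat, 213. A tile held a median of 3 peaks in G4 DNA-IPdenat and 0 in each chromatin list.

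The chromatin lists filled nearly the whole span between them, and few bases were common to all. Of its bases, 98.3% were covered by at least 1 chromatin list, 41.6% by at least 4 and only 286 bp, the shared stretch above, by all 7. Over the 21 pairs of chromatin lists, the share of one list's bases that the other also covered was between 0.789 and 1.37 times the share of the span that the other covered, with a median of 1.02. In the nuc pair 55.5% of the bases of CTnuc were covered by KDnuc, which covered 40.4% of the span, and 77 of 98 CTnuc peaks met a KDnuc peak. In the ut pair 81.7% of the bases of CTut were covered by KDut, which covered 78.8% of the span. In the tr pair 50.7% of the bases of CTtr were covered by KDtr, which covered 48.8%. In the ut and tr pairs the shared part was close to the covered share of the other list, and in the nuc pair it was larger. Only the nuc pair shares an input and only it was sequenced on the Ion Torrent, and these cannot be told apart here. These ratios are descriptions over lists that share cells and were not tested.

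Besides the shared stretch, which all 7 chromatin lists cover, 6 of the 9 lists together covered only short stretches. The longest were chr9:79420889-79422375, chr9:79453569-79454950, chr9:79686611-79687814 in an intron of TLE4, and chr9:79204440-79205569. The first is intergenic, lies within a G4 DNA-IPdenat peak and holds 1 canonical signature. GC content of these stretches was between 34.0% and 43.4%. Over the span, GC content was 45.7% in bases covered by 0 chromatin lists, 41.2% in those covered by 1, 39.9% by 2, 38.7% by 3, 38.5% by 4, 38.4% by 5 and 39.5% by 6, against 39.1% in the run as a whole. The bases covered by 0 lists are only 12734 bp. They include 2122 bp at the TLE4 start with a GC content of 60.2% and 771 bp just before it with 63.6%. The part of these gaps in the 45.7% was not tested.

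TLE4 was the only protein-coding gene among the 10 annotated genes of the run. It had 21 peaks touching it in CTnuc, 42 in KDnuc, 17 in CTut, 11 in KDut, 12 in CTtr, 20 in KDtr, 2 in G4-ChIP, 2 in G4 DNA-IPdenat and 0 in G4 DNA-IPnat. A peak in the gene body was found for 0.456% of 19970 protein-coding genes in CTnuc, 3.39% in KDnuc, 0.751% in CTut, 1.11% in KDut, 0.621% in CTtr, 0.896% in KDtr, 1.19% in G4-ChIP, 13.5% in G4 DNA-IPdenat and 0.03% in G4 DNA-IPnat. TLE4 was among 10 protein-coding genes, or 0.0501%, with a peak in all 7 chromatin lists. TLE4 is long, and among the 6778 protein-coding genes of at least 50 kb the shares were 0.826%, 6.67%, 1.33%, 2.1%, 1.18%, 1.87%, 2.92%, 34.7% and 0.0443% in the same order, and 0.133% for all 7 chromatin lists. These shares describe the background only, since the gene was chosen for its peaks.

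By the covered share of the gene body, TLE4 ranked 4 in CTnuc, 2 in KDnuc, 3 in CTut, 2 in KDut, 2 in CTtr, 2 in KDtr, 15 in G4-ChIP and, for G4 DNA-IPdenat, 1050 among the 6778 protein-coding genes of at least 50 kb. The gene body was covered to 15.8% in CTnuc, 40.0% in KDnuc, 55.6% in CTut, 82.8% in KDut, 75.9% in CTtr, 45.3% in KDtr, 2.62% in G4-ChIP and, for G4 DNA-IPdenat, 1.77%. The gene with the most similar covered shares over the 9 lists was PCDH9 on chromosome 13, a protocadherin of cell adhesion, at a Euclidean distance of 31.6 percentage points. NBPF1 followed at 43.1, then ENSG00000270249 at 97.8, FANK1 at 108 and CCDC200 at 112, against 140 for a gene without any peak. PCDH9 was covered to 88.5% in KDut, 81.9% in CTtr and 20.3% in G4-ChIP.

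Peaks in TLE4 were compared with those in the rest of the run to ask whether the run belongs to the gene. The median fold of a peak whose midpoint lies inside the gene body was 4.75 in CTnuc, 4.69 in KDnuc, 3.46 in CTut, 3.88 in KDut, 3.62 in CTtr, 3.93 in KDtr, 4.47 in G4-ChIP and, for G4 DNA-IPdenat, 5.72. Outside the gene the medians were 4.72, 4.58, 3.43, 3.72, 3.58, 4.01, 4.58 and 6.77 in the same order. Inside values were higher in 5 of 8 lists, and the mean difference of -0.11 ± 0.39 (SD, n = 8 lists) was smaller than the spread between lists (exact sign-flip permutation test, two-sided, p = 0.758, Benjamini-Hochberg adjusted p = 0.884 over 7 tests). The lists share cells and some inputs, so this and the following p-values measure the spread between these lists only. G4 DNA-IPdenat has 2 peaks inside TLE4, and without it the mean difference was 0.027.

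**Figure D3:**
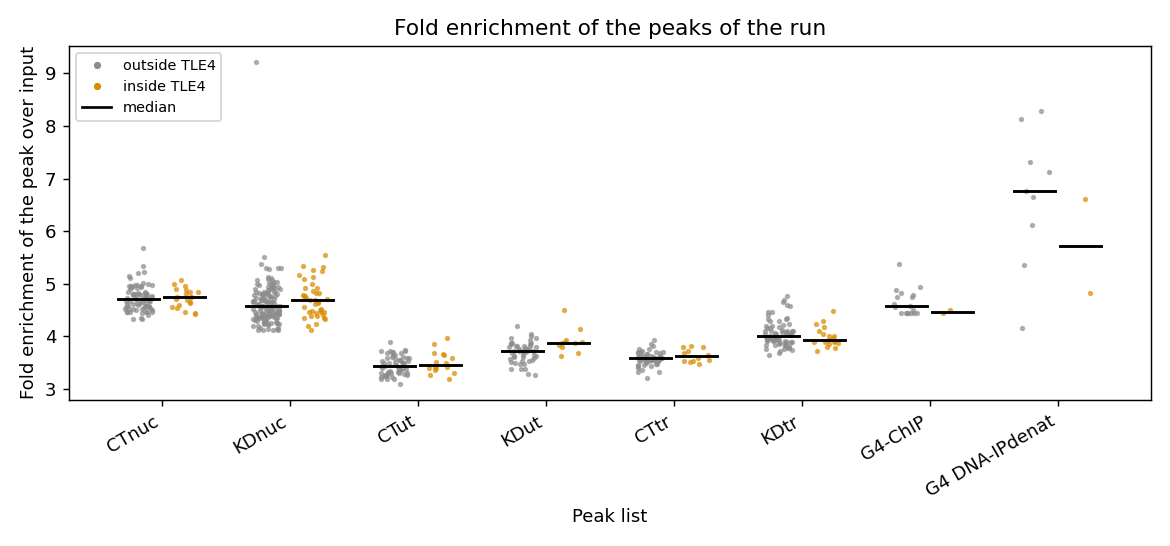
Fold enrichment, as deposited, of every peak of the run (points) in 8 lists, outside (grey) and inside (orange) the TLE4 gene body, with medians as black lines. Inside and outside points overlap in each list, and the KDnuc peak at 9.21 stands above the rest of its list in the run.

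The covered share inside TLE4 was set beside the rest of the run. The rest was covered to 11.5% in CTnuc, 33.1% in KDnuc, 46.0% in CTut, 63.6% in KDut, 62.6% in CTtr, 40.7% in KDtr, 6.40% in G4-ChIP and, for G4 DNA-IPdenat, 4.44%. The share was higher inside the gene in 6 of 9 lists, by a mean of 5.71 ± 7.50 percentage points (SD, n = 9 lists). This value follows the limits, because the rest includes the peak-free margins inside them and the limits were set by the peaks, so no test is read from it. It was 12.0 percentage points with both limits moved 100 kb outwards, -1.32 with both moved 100 kb inwards and -0.88 within the span, the last decided once the values were known. The stretch from the edge to TLE4 was covered to 12.9% in CTnuc, 40.2% in KDnuc, 58.5% in CTut, 78.2% in KDut, 76.1% in CTtr, 51.1% in KDtr and 8.65% in G4-ChIP. The stretch from TLE4 to the other edge was covered to 16.5%, 41.0%, 51.6%, 77.0%, 77.4%, 46.9% and 6.18% in the same order.

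Within the gene, introns were covered more than exons in all 8 lists with peaks. The exons make up only 8276 bases, and most of exon 1 and all of exon 2 lie in the gap at the gene start. The part of that gap in the lower share of exons was not tested. Peaks covered 16.4% of intron and 5.35% of exon bases in CTnuc, 41.1% and 19.8% in KDnuc, 55.9% and 50.7% in CTut, 83.4% and 71.4% in KDut, 76.2% and 70.4% in CTtr, and 45.7% and 38.4% in KDtr. For G4-ChIP and G4 DNA-IPdenat, introns were covered to 2.77% and 1.87% and exons to 0%. Of the 20 exons of the canonical transcript, peaks touched 2 in CTnuc, 7 in KDnuc, 8 in CTut, 17 in KDut, 15 in CTtr and 10 in KDtr. Exon 20 was touched in 5 chromatin lists, exon 1 only in KDnuc and exon 2 in none. The peak with the highest fold in CTut, 3.97 at chr9:79680377-79683262, lay in an intron of TLE4. That of KDut, 4.51 at chr9:79703957-79708799, covered exons of the gene.

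The start of TLE4 was the most GC-rich gap among the 5 stretches of at least 1000 bp in the span that no chromatin list covered. It ran from 79571979 to 79574100, which is 2122 bp over most of exon 1, exon 2 and the introns around them. Its GC content is 60.2%, and it holds 161 GGG or CCC triplets (75.9 per kb, against 22.1 per kb in the run) and 3 of the 58 canonical signatures of the span, including those printed above. A smaller gap of 771 bp, from 79570324 to 79571094, lay just before the gene and has a GC content of 63.6% and 2 signatures. Between them, KDnuc had 1 peak, chr9:79571095-79571978, with a fold of 4.80 and a -log10 q of 3.54, which ended 14 bp past the start of the canonical transcript at 79571965. The promoter within 1 kb of that start was covered to 44.2% in KDnuc and to 0% in the other 8 lists. No base of either gap belongs to a repeat, counted here as a 24-mer that occurs at least 10 times on chromosome 9.

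The peak-free stretch at the TLE4 start differed in width between lists. It was 3777 bp in KDut, 4993 bp in KDtr, 10275 bp in CTut, 10512 bp in CTtr and 30022 bp in CTnuc, against 95078 bp in G4-ChIP. In KDnuc a peak covered the start, and the stretch of 7526 bp began 14 bp past it. In each pair the KD list had the narrower stretch, though in KDnuc it does not contain the start. This was noticed after the values were seen and was not tested. Over windows of 2 kb in the span, the mean covered share of the chromatin lists was 49.3% at a GC content under 35%, 48.9% from 35% to 40%, 42.7% from 40% to 45%, 38.5% from 45% to 50% and 13.0% at 50% or more. The last class had 4 windows, and 2 of them lay at the TLE4 start and 2 at the pseudogene NPAP1P6.

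RefSeq (hg38) gives 2 promoters of 300 bases for TLE4. The canonical signature was found in 1 of them, chr9:79572927-79573226, which has a GC content of 73.3% and 0 bases under a chromatin peak. The other, chr9:79571715-79572014, has a GC content of 58.7% and 264 bases under the KDnuc peak. Of all 35116 RefSeq promoters, 25.0% hold the signature on either strand, as do 1.92% of 300-base windows of the span.

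Sequence was compared between covered and uncovered bases of the run, since guanine runs are what canonical quadruplexes are made of. Covered bases held 21.7 GGG or CCC per kb in CTnuc, 22.6 in KDnuc, 20.7 in CTut, 21.5 in KDut, 21.5 in CTtr, 20.6 in KDtr, 19.8 in G4-ChIP and, for G4 DNA-IPdenat, 19.1. Uncovered bases held 22.2, 21.8, 23.4, 23.3, 23.2, 23.2, 22.2 and 22.2 per kb in the same order. The value was lower in covered bases in 7 of 8 lists, with a mean difference of -1.75 ± 1.31 per kb (SD, n = 8 lists; exact sign-flip permutation test, two-sided, p = 0.0234, adjusted p = 0.164), so it did not pass after adjustment. With only peaks of a -log10 q of 4 or more it turned to 0.14 per kb (7 lists, exact permutation p = 0.984), and with both limits moved 100 kb outwards it was -0.67 per kb (exact permutation p = 0.211). With both limits moved 100 kb inwards it was -2.19 per kb (exact permutation p = 0.0156, not adjusted). Within the span, decided once the values were known, it was -2.27 per kb (exact permutation p = 0.0234, not adjusted). The GC content differed by -0.64 ± 1.21 percentage points (n = 8 lists; exact permutation p = 0.180, adjusted p = 0.419), and was higher in covered bases in CTnuc and KDnuc and lower in the other 6 lists.

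Canonical signatures were present in the run at 63, or 70.0 per Mb, against 64 in the 1 Mb before it and 58 in the 1 Mb after it, and TLE4 itself held 12. Of the 58 signatures in the span, peaks overlapped 5 in CTnuc, 11 in KDnuc, 25 in CTut, 40 in KDut, 39 in CTtr, 18 in KDtr and 5 in G4-ChIP. These are 8.62%, 19.0%, 43.1%, 69.0%, 67.2%, 31.0% and 8.62% of the signatures, where the peaks covered 14.5%, 40.4%, 56.0%, 78.8%, 76.4%, 48.8% and 6.76% of the bases of the span. The share of signatures was below the share of bases in the 6 AbC lists and above it in G4-ChIP, which was not tested.

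Fold enrichment was narrow in the chromatin lists. The median and range were 4.72 (4.33 to 5.68) in CTnuc, 4.58 (4.11 to 9.21) in KDnuc, 3.43 (3.10 to 3.97) in CTut, 3.75 (3.26 to 4.51) in KDut, 3.59 (3.22 to 3.93) in CTtr, 4.00 (3.64 to 4.76) in KDtr and 4.54 (4.45 to 5.38) in G4-ChIP. The lowest fold of each whole list was 4.33, 4.11, 3.08, 3.19, 3.21, 3.64 and 4.45 in the same order. The ranges of the run thus began at or just above the lowest fold listed. In the rest of each list the medians were 5.25, 4.69, 4.06, 3.72, 3.77, 4.23 and 4.61 in the same order, so the peaks of the run were lower in 6 of 7 lists and higher in KDut. The share of peaks with a -log10 q of at least 4 was 3.06% in CTnuc, 11.6% in KDnuc, 33.8% in CTut, 28.8% in KDut, 0% in CTtr, 23.4% in KDtr and 5.0% in G4-ChIP. Over the whole lists it was 51.5%, 34.5%, 67.2%, 42.1%, 39.2%, 52.6% and 16.6%. Most peaks of the run thus had a -log10 q under 4. The median difference in covered share between run and flanks over the 9 lists was 33.9 percentage points with all peaks and 3.32 with only those that reach 4.

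The peaks with the highest fold were different ones in each list. They lay at chr9:79335869-79336625 in CTnuc (fold 5.68, GC content 54.2%, 1 signature), chr9:79812160-79814370 in CTtr (3.93), chr9:79259295-79261897 in KDtr (4.76, 1 signature) and chr9:79859394-79859789 in G4-ChIP (5.38), all intergenic. In KDnuc the highest, with 9.21, stood apart from the next at 5.55. It lay at chr9:79177803-79178591 in an intron of ENSG00000260995. That place is within a G4 DNA-IPdenat peak, chr9:79177449-79182500, with a fold of 8.13 and 97.3% of its bases in repeats.

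G4 DNA-IPdenat went the other way. Its 11 peaks in the run had a median fold of 6.65 (4.15 to 8.29), against 4.67 in the rest of its list, and 72.7% had a -log10 q of at least 4, against 26.5% of its list. Most of their bases were repeated. Repeats made up 10.1% of the bases of the span, 82.6% of the bases under G4 DNA-IPdenat peaks and 6.65% of the bases outside them. Of the 11 peaks, 2 held fewer, with 30.8% and 37.6% of their bases in repeats and a fold of 7.31 and 7.12, and in the others the share was at least 68.2%. Under peaks of the chromatin lists, repeats made up 3.52% of bases in CTnuc, 4.16% in KDnuc, 9.60% in CTut, 9.20% in KDut, 9.49% in CTtr, 7.58% in KDtr and 7.85% in G4-ChIP, and outside them 11.2%, 14.1%, 10.7%, 13.3%, 12.0%, 12.4% and 10.2%. Chromatin peaks thus held fewer repeated bases than the rest of the span in all 7 lists, with the lowest values in the Ion Torrent lists. Only uniquely aligned reads entered the lists, and the part of that filter in these shares was not tested.

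**Figure D4:**
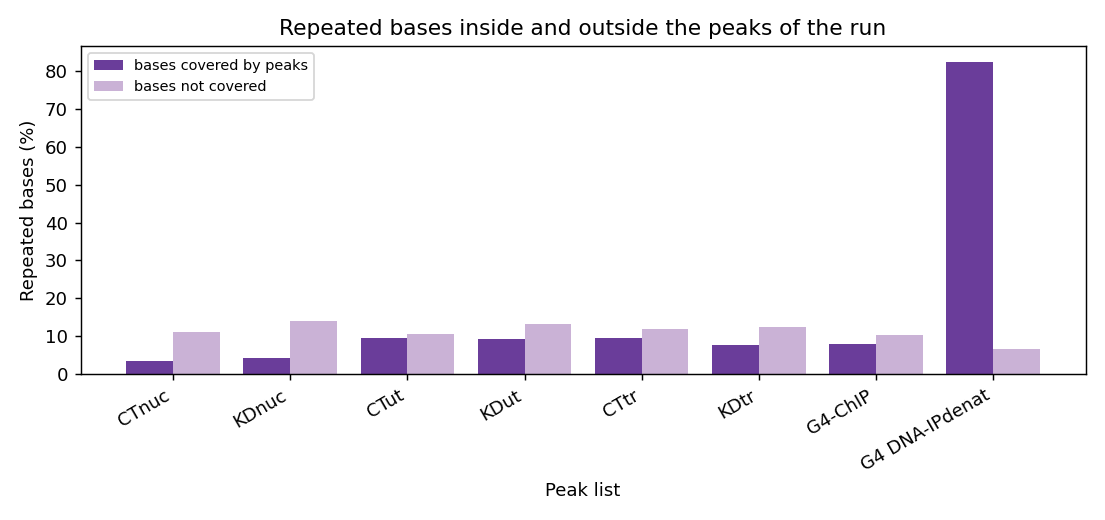
Share of bases in repeated 24-mers (at least 10 copies on chromosome 9) in percent, as bars from 0, among bases of the span under peaks (dark) and outside peaks (light) for 8 lists. G4 DNA-IPdenat reaches 82.6% under peaks, while the 7 chromatin lists stay at or below 9.60%.

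Some gaps in chromatin coverage held G4 DNA-IPdenat peaks. The longest gap of the span, chr9:79496417-79499044, and that at chr9:79181330-79182520 consist of repeats to 98.9% and 98.8%. G4 DNA-IPdenat covered 2628 of 2628 bp and 1171 of 1191 bp of them. The gap at the TLE4 start differed from these, with 0 bp under a G4 DNA-IPdenat peak.

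KD and CT were compared in the 3 pairs to ask whether the run depends on CGGBP1. The number of peaks differed by 83 in the nuc pair, -15 in the ut pair and 28 in the tr pair (KD minus CT), with a mean of 32.0 ± 49.1 (SD, n = 3 pairs; exact sign-flip permutation test, two-sided, p = 0.5, adjusted p = 0.7). The covered share differed by 22.0, 19.3 and -23.5 percentage points in the same order, with a mean of 5.96 ± 25.5 (n = 3 pairs, exact permutation p = 1). The median fold differed by -0.14, 0.31 and 0.41, with a mean of 0.19 ± 0.29 (n = 3 pairs, exact permutation p = 0.5, adjusted p = 0.7). With 3 pairs the smallest p this test allows is 0.25, so the design could not show a difference at 0.05. None of these measures had the same sign in all pairs. The lowest fold of the whole list also differed within pairs. It was 4.33 in CTnuc and 4.11 in KDnuc, 3.08 in CTut and 3.19 in KDut, and 3.21 in CTtr and 3.64 in KDtr. In each pair it went in the same direction as the median fold of the run, and its part in that difference was not tested.

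Other genes of the run, most of them lncRNAs and pseudogenes, were covered too. LNCARSR, a lncRNA known from kidney cancer cells, lies just before TLE4 on the minus strand at chr9:79505804-79567802 and was covered to 9.18% in CTnuc, 47.4% in KDnuc, 62.4% in CTut, 82.2% in KDut, 76.6% in CTtr, 64.8% in KDtr and 8.38% in G4-ChIP. ENSG00000260995, in which the run begins, was covered to between 2.86% (CTnuc) and 40.5% (CTtr) of its length. ENSG00000232494 was covered to between 14.9% (CTnuc) and 77.2% (CTtr). ENSG00000260564 and ENSG00000279715 reached 78.6% and 74.6% in 1 list each and were covered to 0% in at least 1 chromatin list. The pseudogenes CHCHD2P9, ENSG00000270691 and NPAP1P6, with highest shares of 100%, 100% and 84.0%, had a peak in 3, 4 and 3 chromatin lists. ENSG00000280366, at 79975023 to 79990064 beyond the last peak, had 0 peaks. In the flanks lay 17 genes, of which CEP78, a centrosomal protein, and PSAT1, an enzyme of serine synthesis, are protein-coding, and chromatin peaks met 0 of them.

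The Groucho family and its partners were looked at for peaks of their own. Of the 16 genes, TLE1, TLE2, TLE3, TLE5, TLE6, TLE7, TCF7, TCF7L1, TCF7L2, LEF1, HES1, HHEX, SIX3, PAX5, RUNX1 and CTNNB1, peaks met 0 in each chromatin list other than KDnuc, which had 1 peak in PAX5, a B cell factor. TLE1, the neighbouring family member on chromosome 9 at chr9:81583683-81689547, had 0 peaks in all 9 lists. G4 DNA-IPdenat had peaks in 3 of them, TCF7L1, PAX5 and RUNX1. Over all protein-coding genes a peak was found in 0.456% (CTnuc) to 3.39% (KDnuc) in the chromatin lists and in 13.5% in G4 DNA-IPdenat, so counts this low over 16 genes are close to the background and say nothing particular to the family.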

How the data were processed

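The data were 9 peak lists, each from 1 immunoprecipitation library of HEK293T cells. The 7 inputs have no peak list and were not used here. The authors aligned reads to hg38, kept unique alignments and called broad peaks with MACS2 against input. The bandwidth was 3000 for the AbC lists and G4 DNA-IPdenat, with local lambda switched off at a broad cutoff of 0.01. For G4-ChIP and G4 DNA-IPnat it was 300. Wide settings can join neighbouring peaks. The methods name minimap2, and the study's sequencing tables give bowtie2 for reads from the Ion Torrent. The fold enrichment of each peak was used as deposited by the authors. Where local lambda was off, it is set against 1 genome-wide background and not against the input at that place. The -log10 p and -log10 q values and the score (from q) were deposited by the authors as MACS2 gave them, and of these only q was used. Every list covers 1 pooled library and gives no depth, so precision could be judged only between lists.

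Peaks were taken from 79.1 to 80.0 Mb of chromosome 9 at an overlap of at least 1 bp. Start positions were written counting from 1. Genes came from GENCODE version 44, promoters from RefSeq. GC content, GGG and CCC triplets, canonical signatures and repeated 24-mers were counted in hg38. Peaks did not reach past a chromosome's end in this build. A peak was inside TLE4 when its midpoint was. KD and CT were compared within the pairs nuc, ut and tr, which titles name and which share platform and handling, and other contrasts over lists, by exact sign-flip permutation tests with Benjamini-Hochberg adjustment over 7 tests, of which that of covered share inside TLE4 is not read because it depends on the limits. Functions were tested on simulated data, and 16 of 16 checks were recovered. Members, gene lists and tests were chosen with earlier results of these data known. Some items covered by these rules are not reported here. Regions named were the first, last and highest-fold peak of each list, the 5 stretches covered by most lists and peaks at TLE4 exons or promoters. Genes named were those of the run, protein-coding ones of the flanks, 16 Groucho genes and the 5 genes of at least 50 kb closest to TLE4 in covered share. The span, the gaps, the small cluster, repeats and absent peak numbers were chosen after values had been seen. Alternatives were a -log10 q of at least 4, other limits of the run, 50% of a peak's length in the run, other gene bodies, means for medians, other flanks, no replicate block and leaving out each list or pair. Python 3.11.15, numpy 2.4.6, pandas 2.3.3, scipy 1.17.1 and matplotlib 3.10.9 were used.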

Additional observations from a re-analysis of the deposited data

Results flagged for a closer look

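KD minus CT in the run went in opposite directions between the pairs, which singled out these values. The peak count differed by 83 in the nuc pair, -15 in the ut pair and 28 in the tr pair. The covered share differed by 22.0, 19.3 and -23.5 percentage points, and the median fold by -0.14, 0.31 and 0.41. With 1 library per condition in each pair, the difference between pairs was not tested.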

How the results depend on the processing

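Of 90 values of tested results under alternative settings, 74 kept their direction and their side of the threshold, and of 15 for run minus flanks, which has no test, 14 moved by less than 1 SD over lists. The p-values of KD minus CT could not fall below 0.05 at any setting, so for these values only the direction could change. Leaving out each list or pair in turn gave 6.5 to 55.5 for the KD minus CT peak count, -2.07 to 20.7 percentage points for the covered share and 0.087 to 0.36 for the median fold. The covered share turned to -2.07 without the nuc pair and -0.72 without the ut pair. Without the replicate block the mean differences stayed at 32.0 peaks, 5.96 percentage points and 0.19 in fold (exact permutation of labels, p = 0.7, 0.9 and 0.6). The smallest p possible is 0.1 for this permutation and 0.25 with the pairing, so neither could give a call at 0.05. Inside minus outside TLE4, leaving out lists gave -0.15 to 0.027 in fold, where 0.027 is without G4 DNA-IPdenat and equally for chromatin lists alone (exact permutation p = 0.5). For the covered share it gave 4.03 to 6.89 percentage points, and 2.85 at a -log10 q of at least 4, 12.0 with both limits moved 100 kb outwards, -1.32 with both moved inwards and -0.88 within the span, where the margins without peaks are left out by construction. The triplet difference was -2.12 to -1.56 per kb with lists left out, 0.14 at the stricter q and -0.67 with both limits moved 100 kb outwards. It was -2.19 per kb with both limits moved inwards and -2.27 within the span. The GC difference was -0.97 to -0.49 percentage points, and -0.97 (exact permutation p = 0.0469) without KDnuc. Run minus flanks was 23.0 to 37.5 percentage points with lists left out and 3.32 at the stricter q. Causes of these changes were not tested. CTtr has 0 peaks of the run at the stricter q, so its pair left the fold test there. The lists give no depth, so a missing peak is not absence of signal.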
